A study of Homo sapiens with 18 samples.

Results

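Retained-intron transcripts are annotated transcript models that keep intron sequence of a gene whose other models splice it out. The transcripts described here are the rows classed as retained intron in the deposited transcript tables that had a mean estimated count of at least 5 over all 17 libraries analysed. This rule found 3603 transcripts, called members from here on, among 164776 transcripts in all and among 26683 retained-intron rows, of which 21660 had any count. The members belong to 2471 of 34912 genes, 759 of which hold 2 or more, and were compared with the 29055 other transcripts of the same genes. Those others include 6667 retained-intron rows below the level. The rule used the mean level and the annotated class, so neither is a finding. The member just inside the level was PDCD5 ENST00000586316 with a mean count of 5.0002, and the transcript just outside was IQCC ENST00000617816 with 4.9989.

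The samples were LNCaP cells, an androgen-responsive human prostate cancer line, and the study asked which transcription factors regulate the metabolism of such cells. Cells received a pool of control siRNAs, of siRNAs against KLF5 (a zinc-finger factor) or of siRNAs against NFYA (the part of the heterotrimer NF-Y that recognises the CCAAT box), here called siControl, siKLF5 and siNFYA. All groups were kept for 48 h in 5% charcoal-stripped serum, which is poor in steroids, and then given vehicle (96% ethanol) or 10 nM of the synthetic androgen R1881 for 24 h. The labels give 6 groups of 3 samples. One of these 18 samples, siKLF5 vehicle replicate 1, was not analysed here, which leaves 2 siKLF5 vehicle libraries. A pool of siRNAs lowers a factor without removing it, and the labels name no rescue or second pool.

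Intron retention is a form of alternative splicing in which the spliceosome leaves an intron in an otherwise processed RNA. Many such RNAs stay in the nucleus, where they are called detained-intron transcripts, or are degraded in the cytoplasm by nonsense-mediated decay because the intron brings a stop codon. Genes for SR proteins, for the CLK kinases that phosphorylate them, for hnRNPs and for the sugar transferase OGT are known for such introns, which some of these genes use to set their own output. A deposited count for such a model is an estimate that shares reads among overlapping models of a gene. It therefore cannot tell a spliced RNA with 1 kept intron from a precursor RNA that still holds others, and in a bulk library a kept intron in more cells cannot be told apart from more of it per cell.

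The members were of different structure. Introns were those of protein-coding models of the same gene. Of 3602 members found in GENCODE v29 (GRCh38), 1563 (43.39%) hold at least 1 such whole intron inside an exon. Another 1918 begin or end inside such an intron, and 121 do neither. Any member of a gene without a protein-coding model is among the 121, whatever its structure. Among the 1563, 979 hold exactly 1 such intron, 584 hold 2 or more, and the most was 11. They cover 2392 distinct introns, 2183 of them with coding sequence on both sides. These introns had a median length of 301 bases (quartiles 137.75 and 675.25), against 926 bases (279 and 2796) for 18749 other introns of the same genes, and 35.95% against 19.43% were under 200 bases. An intron must fit inside an annotated exon to be counted, which favours short ones. Of overlapping introns inside an exon only the shortest was counted, and longer ones could fall among the other introns. Both rules push the lengths apart. On the transcribed strand 96.66% of the retained introns ran from GT to AG, 32 ran from GC to AG, and 48 had other ends. Of those 48, 30 overlap coding sequence of another coding transcript of the gene, as 231 (9.66%) of all retained introns do. The first 5 bases were GTGAG in 31.6% and GTAAG in 15.5% of the retained introns, and a median of 15 of the 20 bases before the closing AG were pyrimidines (quartiles 13 and 16).

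The ends of introns held by members named below are shown because reads in them separate a member from the spliced models of its gene. Capitals mark the first and last 2 bases of the intron on the transcribed strand, with exon sequence before the capitals of the 5′ end and after the capitals of the 3′ end. Coordinates are those of the intron on GRCh38, with the sequence from the GENCODE v29 transcripts. The introns of OGT (chrX:71544636-71547906, plus strand, 3271 bases, 41.61% GC), DDX17 (chr22:38488116-38492055, minus strand, 3940 bases, 40.46% GC) and HNRNPA2B1 (chr7:26197867-26200571, minus strand, 2705 bases, 40.81% GC) lie between coding exons of genes whose members were higher in knockdown libraries:
OGT 5′ end: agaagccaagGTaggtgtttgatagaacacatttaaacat
OGT 3′ end: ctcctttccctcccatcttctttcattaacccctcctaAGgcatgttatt
DDX17 5′ end: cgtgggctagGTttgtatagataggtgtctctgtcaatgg
DDX17 3′ end: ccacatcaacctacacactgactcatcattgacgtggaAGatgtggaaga
HNRNPA2B1 5′ end: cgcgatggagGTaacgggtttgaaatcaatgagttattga
HNRNPA2B1 3′ end: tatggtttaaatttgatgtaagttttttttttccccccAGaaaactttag
In these introns the 20 bases before the closing AG held 16 pyrimidines in OGT, 10 in DDX17 and 17 in HNRNPA2B1, and none overlapped coding sequence of another transcript.

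A second set belongs to members that differed with R1881. The introns are those of KLK2 (chr19:50876759-50876871, plus strand, 113 bases, 61.95% GC), FAAP20 (chr1:2192976-2193638, minus strand, 663 bases, 55.96% GC), COLEC12 (chr18:333144-334741, minus strand, 1598 bases, 50.19% GC) and H2AFY (chr5:135343435-135345967, minus strand, 2533 bases, 45.76% GC). They are followed by the 123-base interval of KLK3 (chr19:50858176-50858298, plus strand, 66.67% GC), which runs from CC to AG and is coding sequence in another KLK3 transcript, so that its reads can come from spliced coding mRNA:
KLK2 5′ end: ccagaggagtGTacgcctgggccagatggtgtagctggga
KLK2 3′ end: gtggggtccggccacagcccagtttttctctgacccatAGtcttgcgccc
FAAP20 5′ end: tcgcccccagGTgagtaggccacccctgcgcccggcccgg
FAAP20 3′ end: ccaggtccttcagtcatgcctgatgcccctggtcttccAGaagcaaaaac
COLEC12 5′ end: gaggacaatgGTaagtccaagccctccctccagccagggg
COLEC12 3′ end: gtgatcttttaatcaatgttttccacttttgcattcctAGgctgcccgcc
H2AFY 5′ end: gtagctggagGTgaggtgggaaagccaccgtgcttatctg
H2AFY 3′ end: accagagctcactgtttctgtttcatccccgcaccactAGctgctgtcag
KLK3 5′ end: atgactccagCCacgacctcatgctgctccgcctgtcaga
KLK3 3′ end: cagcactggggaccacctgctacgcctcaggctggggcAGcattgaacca

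Most members were low. Their mean count had a median of 10.96 (quartiles 7.12 and 22.7), 1008 reached 20, 176 reached 100 and 10 reached 1000, and 1866 had no count in at least 1 library. Member counts were unsteady between replicates, since 37.4% of members varied at least 10-fold within a group (counts + 1), against 35.4% of protein-coding transcripts with a mean count of at least 5. Above a mean count of 50 these shares were 10.0% of 379 members and 8.56% of protein-coding transcripts. The members with the highest TPM belong to genes of the translation machinery and of polyamine control. Levels in CPM (counts divided by the TMM-scaled library size) for RPL4 ENST00000561775, a model of a large-subunit ribosomal protein gene that ends inside an intron, ran from 979 to 1190 over all 17 libraries, 53.0% to 56.2% of the gene's counts. OAZ1 ENST00000592727, from the gene of ornithine decarboxylase antizyme, ran from 278 to 391 CPM. EEF1A1 ENST00000488500, from an elongation factor gene, showed how unsteady an abundant member can be: it had 440.6, 437.8 and 167.2 CPM in siControl vehicle, and 8.19 and 810 CPM in the siKLF5 vehicle libraries.

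Facts of all libraries bear on every comparison below. Each library summed to between 4416653 and 6872421 estimated counts, and 1 CPM therefore stands for about 4 to 7 counts. NFYA was at 74.3 to 82.9 CPM in the control libraries and 48.2 to 54.8 in the siNFYA libraries. KLF5 was at 3.54 to 5.34 CPM in siControl vehicle against 1.02 and 3.30 in siKLF5 vehicle, and at 23.4 to 29.4 in siControl R1881 against 10.6 to 14.2 in siKLF5 R1881. Of the luminal prostate markers, KRT8, KRT18 and EPCAM were at 101.1 CPM or more in all libraries, while the androgen-responsive KLK2, KLK3 and TMPRSS2 went down to 3.49, 36.4 and 77.3 CPM. The basal marker KRT5 was at 0, and the stromal COL1A1 ran from 6.16 to 17.3 CPM. NFYA and KLF5 have no member.

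Members took a larger share of all transcript counts in each knockdown group than in the matched control group. The share was 1.92% ± 0.033 (SD, n = 3) in siControl vehicle, 2.34% ± 0.162 (n = 3) in siNFYA vehicle and 2.18% ± 0.102 (n = 2) in siKLF5 vehicle. With R1881 it was 1.77% ± 0.012 in siControl, 2.24% ± 0.030 in siNFYA and 2.03% ± 0.063 in siKLF5 (n = 3 each). By library, the siControl vehicle values were 1.96%, 1.89% and 1.91%, and the siNFYA vehicle values 2.48%, 2.38% and 2.17%. The siControl R1881 values were 1.77%, 1.79% and 1.76%, and the siNFYA R1881 values 2.26%, 2.20% and 2.25%. No knockdown library overlapped the control libraries of its treatment, siNFYA vehicle replicate 3 was the lowest of its group, and the R1881 control libraries lay below the vehicle control libraries. As a share of TPM the separation was lost in vehicle, where siNFYA replicate 3 (3.5099%) and siKLF5 replicate 2 (3.5476%) lay below the siControl libraries (3.5868%, 3.5484% and 3.5531%). No test was run on this share, because the members were chosen as a class.

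The difference was larger for members that hold a whole intron. Their share was 0.683% ± 0.029 in siControl vehicle, 0.970% ± 0.088 in siNFYA vehicle and 0.873% ± 0.071 in siKLF5 vehicle, and 0.626% ± 0.0044, 0.912% ± 0.0195 and 0.798% ± 0.046 with R1881. Members that begin or end inside an intron went from 1.18% to 1.30% and 1.24% in vehicle, and from 1.07% to 1.23% and 1.15% with R1881. Other measures moved with the same groups. The share of mitochondrially encoded mRNAs was 1.89% in siControl vehicle and 1.38% in siControl R1881, against 2.81% and 2.57% in siNFYA and 2.71% and 2.49% in siKLF5. Transcripts of the class processed transcript went from 2.08% to 2.25% and 2.20% in vehicle. Their part in the result was not tested.

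**Figure D1:**
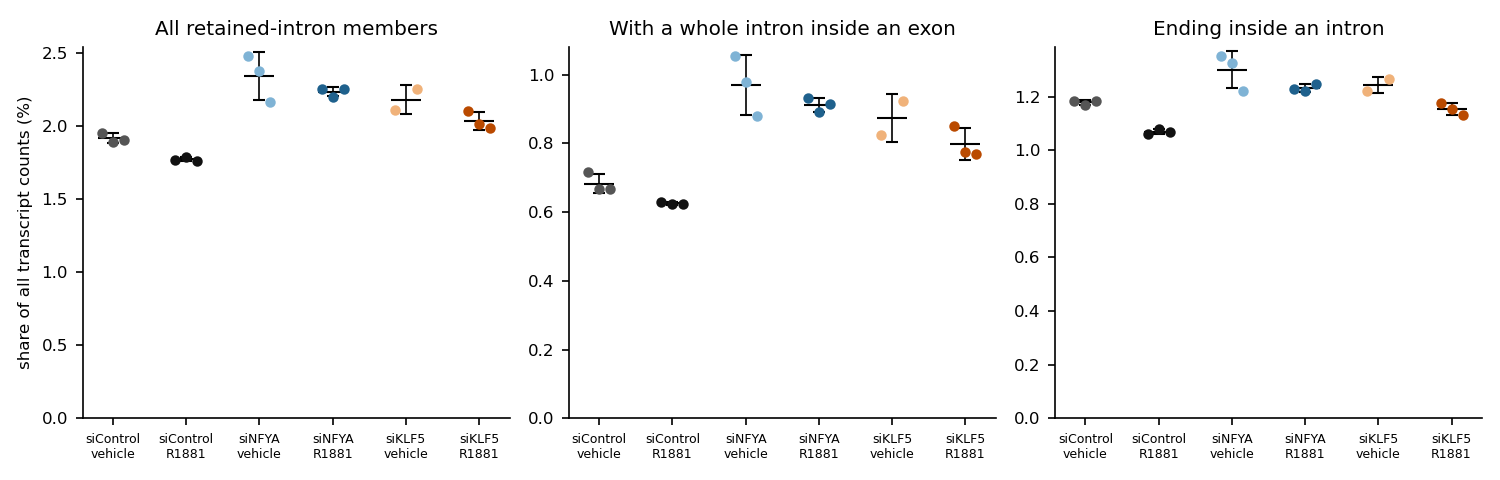
Share of all transcript counts (percent, vertical axis from 0) held by all 3603 members, by members with a whole intron inside an exon and by members that begin or end inside an intron, in the 6 groups; points are libraries, bars the mean and SD. For all members, the siNFYA libraries sit between 2.17% and 2.48% and the siControl libraries between 1.76% and 1.96%.

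Over all members, the median log2 ratio of a knockdown group to its control group was above 0 in both knockdowns and both treatments. Here each group's TMM-scaled counts were summed, with a floor of 3 counts a group. The median was 0.61 for siNFYA in vehicle, 0.66 for siNFYA with R1881, 0.41 for siKLF5 in vehicle and 0.46 for siKLF5 with R1881. Members above 0 made up 74.0%, 74.7%, 69.8% and 70.9%. The other transcripts of the same genes at the same level had medians of −0.02, −0.02, −0.00 and −0.02, and all transcripts with a mean count of at least 5 had −0.01, −0.01, 0.01 and −0.00. Transcripts classed as nonsense-mediated decay targets had medians of 0.02, 0.05, 0.04 and 0.04, and processed transcripts had 0.07, 0.09, 0.07 and 0.10. Members with a whole intron had 0.94, 1.00, 0.59 and 0.73, and members that begin or end inside an intron had 0.35, 0.38, 0.26 and 0.29.

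Abundant members stood apart from the rest. For the 379 members with a mean count over 50 the medians were 0.04, 0.05, 0.04 and 0.01, and for the 3224 members with a mean count of 5 to 50 they were 0.71, 0.79, 0.48 and 0.56, against −0.00, 0.01, 0.03 and 0.04 for protein-coding transcripts of that level. Between 131 and 288 members had fewer than 3 counts in 1 of the groups compared, and these sit at the floor. Most libraries behind the mean count were knockdown libraries, so near the level of 5 the rule favours rows that were higher there. The coding transcripts with a mean count of 5 to 50 were picked by the same mean. How much this adds to the medians of members was not tested. By library, the median of all members against the control mean was 0.60, 0.50 and 0.37 in siNFYA vehicle, 0.57, 0.47 and 0.49 in siNFYA R1881, 0.30 and 0.36 in siKLF5 vehicle, and 0.42, 0.33 and 0.24 in siKLF5 R1881. The control libraries lay between −0.05 and 0.03, and every knockdown library was above every control library on this measure. Each control library is part of the mean it is set against, which draws it towards 0. The control range therefore understates the spread between libraries.

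**Figure D2:**
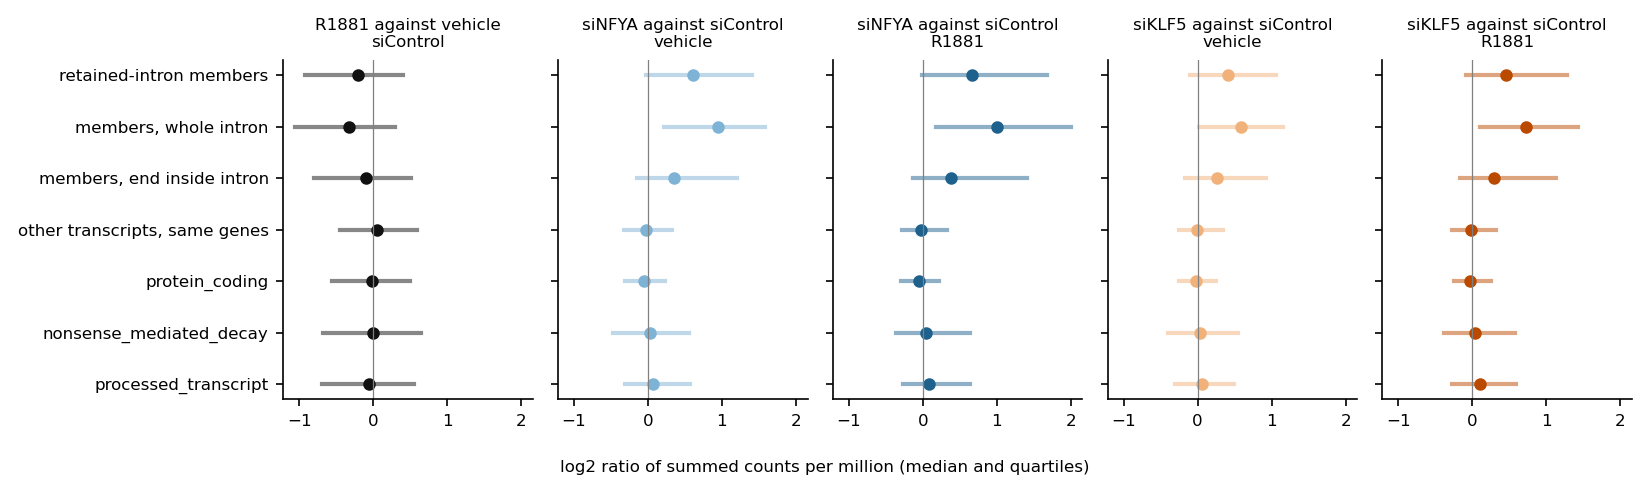
Median (point) and quartiles (line) of the log2 ratio of summed CPM in 5 comparisons, for all members, members by structure, the other transcripts of the members' genes and 3 transcript classes with a mean count of at least 5. Members with a whole intron have medians of 0.59 to 1.00 in the 4 knockdown comparisons and −0.33 for R1881, while protein-coding transcripts stay between −0.05 and −0.01.

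The vehicle and R1881 arms share no library, so their values can be set side by side. Across members (n = 3603), the log2 ratios of siNFYA in vehicle and with R1881 had a Pearson r of 0.41, with 60.6% of members above 0 in both and 11.8% below 0 in both. For protein-coding transcripts with a mean count of 5 to 50 (n = 14671) r was 0.03, with 27% and 25.3%. For siKLF5 in the 2 treatments r was 0.28 over members and 0.02 over those coding transcripts. Across the knockdowns, siNFYA in vehicle against siKLF5 with R1881 gave 0.30, and siNFYA with R1881 against siKLF5 in vehicle gave 0.33, against 0.01 and 0.03 for the coding transcripts. These describe transcripts of the same libraries, which are not independent replicates.

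Single members were then read from a test of every transcript (edgeR's quasi-likelihood test, Benjamini-Hochberg adjustment over all transcripts tested, called at an adjusted p under 0.05), which took in 3042 members in the siNFYA table and 3044 in the siKLF5 table after its low-count filter. A second test compared each transcript with the rest of its gene (limma on the log2 ratio, pseudocount 0.5), and took in 3011 members in either table. Here and below, member shares are over all 3603 members, tested or not, and background shares over the transcripts tested. This makes the member shares somewhat low against the background. With siNFYA in vehicle, 29 members were higher and 1 was lower, 0.805% and 0.0278% of all members, where 0.178% of all transcripts tested were called higher and 0.276% lower. With siNFYA and R1881, 69 were higher and 1 lower, 1.92% and 0.0278%, where the background was 0.381% higher and 0.192% lower. Of the 29 members higher in vehicle, 23 were also higher with R1881, 79.3% of the vehicle list and 33.3% of the R1881 list. The 69 members came from 65 genes and had a median log2 change of 2.30, whereas the rest of their genes had a median of 0.02. Of these 69, 51 hold a whole intron, 15 begin or end inside one and 3 do neither, and for the 29 the numbers were 22, 6 and 1.

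Relative to the rest of the gene, 108 members were higher and 1 lower with siNFYA and R1881, where the background was 0.53% higher and 0.129% lower, and 8 were higher and 0 lower in vehicle, where it was 0.0459% and 0.0429%. In that vehicle comparison 691 members had an unadjusted p under 0.05 in limma. The counts of calls differed between fits. DESeq2 called 305 members higher in vehicle and 378 with R1881, while edgeR fitted on the 2 compared groups alone called 0 and 16. For such alternative fits and for unadjusted p, the share over all transcripts is not given here. Those counts, here and below, are therefore no result about the members as a class. Each library left out also lowered them: without siControl vehicle replicates 1, 2 and 3 in turn the vehicle count was 15, 5 and 7, and without siNFYA vehicle replicates 1, 2 and 3 it was 5, 8 and 12. With R1881 the counts were 36, 44 and 31 without the control replicates and 33, 32 and 24 without the siNFYA replicates. The within-gene total of 109 with R1881 was 90, 103 and 81 without the control replicates and 33, 51 and 37 without siNFYA replicates 1, 2 and 3.

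The gene of the O-GlcNAc transferase OGT, the enzyme that puts single N-acetylglucosamine residues on nuclear and cytoplasmic proteins, gave the member called higher in all 4 knockdown comparisons. OGT ENST00000488174 (chrX:71533104-71574655) had 17.5, 19.5 and 22.7 CPM in siControl vehicle, 75.9, 63.9 and 48.4 in siNFYA vehicle, and 42.2 and 46.2 in siKLF5 vehicle. With R1881 it had 10.6, 11.1 and 11.6 CPM in siControl, 56.9, 48.2 and 57.7 in siNFYA, and 42.1, 37.4 and 37.1 in siKLF5. Every knockdown library was above every control library of either treatment. For siNFYA the log2 change was 1.67 ± 0.16 (SE) in vehicle (edgeR adjusted p = 0.0031) and 2.30 ± 0.17 with R1881 (adjusted p = 0.00026). For siKLF5 it was 1.16 ± 0.13 in vehicle (adjusted p = 0.041) and 1.82 ± 0.12 with R1881 (adjusted p = 0.0029). The member's share of OGT counts with R1881 was 10.3%, 10.7% and 10.8% in siControl, 34.8%, 33.5% and 37.7% in siNFYA, and 30.1%, 28.96% and 27.7% in siKLF5. The within-gene change was 2.20 ± 0.26 for siNFYA (limma adjusted p = 0.0062) and 1.77 ± 0.24 for siKLF5 (adjusted p = 0.034), the latter past the threshold in no fit that left out a library. The siKLF5 vehicle call ended without siControl vehicle replicate 1 or 2 or either siKLF5 library.

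Genes of RNA-binding proteins supplied many of the other called members. DDX17, an RNA helicase that takes part in splicing, has the member ENST00000216019 (chr22:38485681-38506294), with 35.4, 20.4 and 23.1 CPM in siControl vehicle and 78.0, 66.5 and 56.4 in siNFYA vehicle. With R1881 it had 8.75, 10.9 and 12.1 CPM in siControl, 63.4, 52.7 and 60.2 in siNFYA, and 39.5, 42.8 and 36.0 in siKLF5. The groups did not overlap, and the log2 changes were 1.36 ± 0.21, 2.48 ± 0.22 and 1.91 ± 0.21 (edgeR adjusted p = 0.024, 0.00097 and 0.032).

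HNRNPA2B1 ENST00000463181, from the gene of an abundant hnRNP that packages nuclear RNA, holds 3 whole introns. It had 15.8, 11.5 and 13.0 CPM in siControl vehicle against 37.4, 35.1 and 26.3 in siNFYA vehicle, and 9.26, 9.92 and 9.96 in siControl R1881 against 25.03, 24.9 and 33.7 in siNFYA R1881 and 26.7, 20.7 and 21.1 in siKLF5 R1881. Its log2 changes were 1.30 ± 0.19, 1.52 ± 0.19 and 1.24 ± 0.16 (edgeR adjusted p = 0.021, 0.0075 and 0.047). EWSR1, from which an RNA-binding protein of the nucleus is made, has the member ENST00000469669 with 10.95, 8.41 and 7.93 CPM in siControl vehicle and 24.9, 23.3 and 21.8 in siNFYA vehicle, a log2 change of 1.37 ± 0.19 (adjusted p = 0.019). In siKLF5 vehicle that member had 12.7 and 23.4 CPM, and the comparison was not past the threshold (adjusted p = 0.99). DDX39B ENST00000462256, from the gene of a helicase of mRNA export, rose by 1.19 ± 0.13 with siNFYA and R1881 (adjusted p = 0.0034) and by 0.89 ± 0.12 with siKLF5 and R1881 (adjusted p = 0.047).

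SR proteins bind exons and recruit the spliceosome. SRSF5 ENST00000556184 had 5.29, 7.04 and 7.03 CPM in siControl R1881 and 30.5, 27.8 and 32.5 in siNFYA R1881, from 5.03%, 6.24% and 5.70% of the gene's counts to 19.9%, 18.3% and 20.6%. Its log2 change was 2.24 ± 0.21 (edgeR adjusted p = 0.0014), and in vehicle 1.38 ± 0.20 (adjusted p = 0.022). SRSF4 ENST00000634348 rose by 2.51 ± 0.34 with siNFYA and R1881 (adjusted p = 0.012), and SRSF3 ENST00000620389 by 0.98 ± 0.15 (adjusted p = 0.022). CLK4 ENST00000519583, from the gene of a kinase of SR proteins, had no count in any of the 3 siControl R1881 libraries and 2.06, 3.15 and 1.46 CPM in siNFYA R1881. That is at least 12.1-fold higher against a floor of 3 counts over the group (edgeR adjusted p = 0.013). With 1.15 CPM in siControl vehicle, the CLK4 member reached the mean count of 5 only through knockdown libraries, so its values are a description. HNRNPH1 ENST00000514332, with 1.09, 0 and 0 CPM in siControl R1881 and 13.2, 4.80 and 11.8 in siNFYA R1881, did not pass (adjusted p = 0.11).

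**Figure D3:**
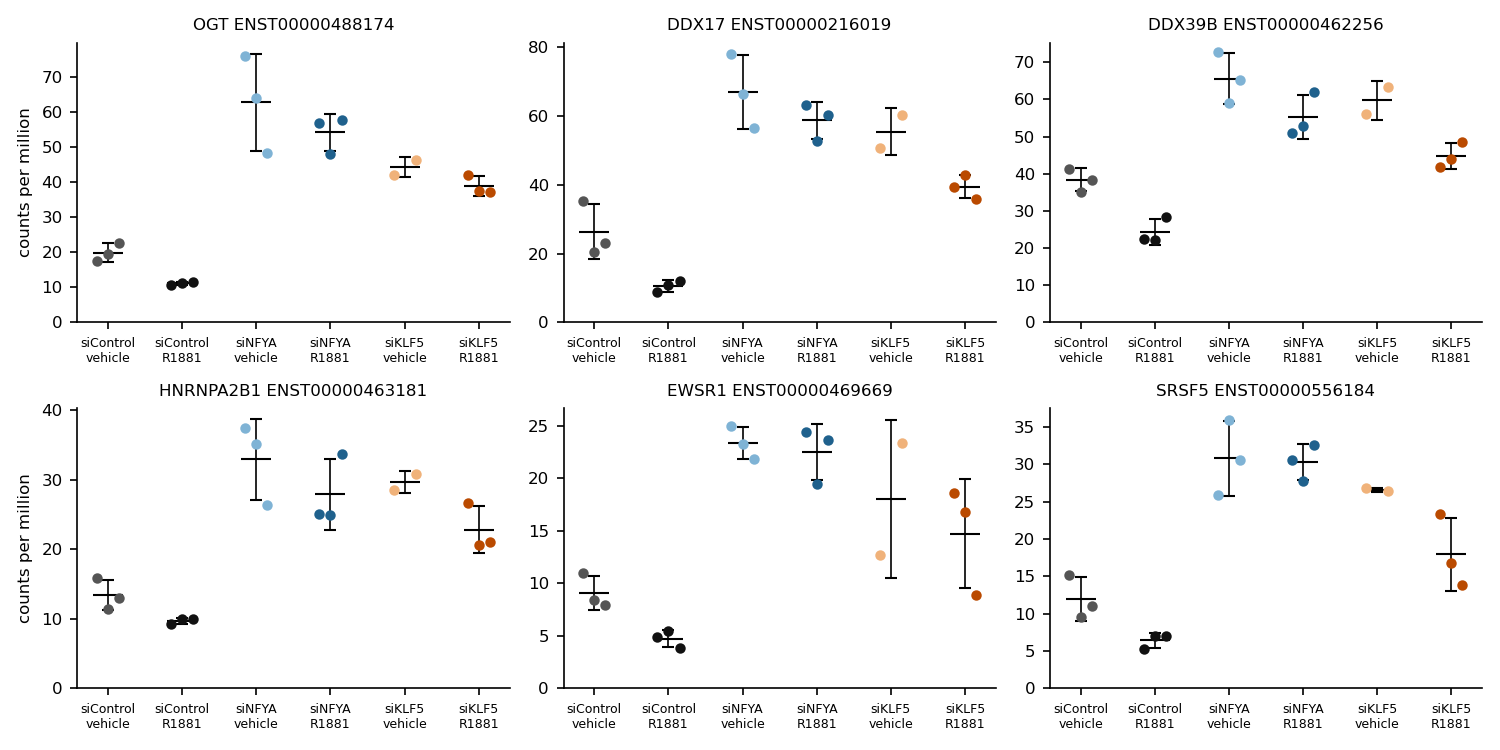
CPM of 6 members of RNA-binding protein genes and OGT in the 6 groups (points are libraries, bars the mean and SD, vertical axes from 0). In OGT, control libraries lie between 10.6 and 22.7 and knockdown libraries between 37.1 and 75.9.

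Members of other genes were called too. ADAMTS1 ENST00000464589, from the gene of a secreted metalloproteinase, had 6.49, 5.43 and 5.42 CPM in siControl vehicle and 22.8, 27.6 and 34.5 in siNFYA vehicle. Its log2 change was 2.29 ± 0.19 in vehicle (edgeR adjusted p = 0.0026) and 2.57 ± 0.19 with R1881 (adjusted p = 0.00026), and within the gene 2.56 ± 0.29 and 2.77 ± 0.29 (limma adjusted p = 0.014 and 0.0039). In siKLF5 it had 18.0 and 15.2 CPM in vehicle, changes of 1.52 ± 0.26 there and 1.64 ± 0.25 with R1881 that did not pass (edgeR adjusted p = 0.34 and 0.067). In vehicle with siNFYA, called members also came from DAZAP1 (an RNA-binding protein, log2 change 2.33 ± 0.36), DYNC1LI2 (a dynein light intermediate chain, 2.05 ± 0.30), FLNA (the actin crosslinker filamin A, 2.12 ± 0.32), ENO1 (the glycolytic enzyme enolase, 3.24 ± 0.51), PLEKHH3 (1.84 ± 0.26) and KLK3 (prostate-specific antigen, 1.68 ± 0.24). Their edgeR adjusted p ran from 0.021 for KLK3 and PLEKHH3 to 0.027 for ENO1.

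With siNFYA and R1881, ACADVL ENST00000577191, from the gene of the very-long-chain acyl-CoA dehydrogenase of fatty acid oxidation, had 1.04, 2.48 and 0.575 CPM in siControl and 13.0, 12.1 and 11.2 in siNFYA. Its log2 change was 3.13 ± 0.47 (edgeR adjusted p = 0.021). HDAC1 ENST00000476391 (a histone deacetylase) rose by 3.21 ± 0.56 (adjusted p = 0.039), INTS3 ENST00000481797 (an Integrator subunit) by 2.96 ± 0.45 (adjusted p = 0.021), and PLEKHH3 ENST00000591490 by 2.76 ± 0.28 (adjusted p = 0.0023). Relative to the rest of their genes, members of KRI1, RBBP4 (a histone-binding chromatin protein) and OXA1L (a mitochondrial membrane insertase) were called (limma adjusted p = 0.038, 0.031 and 0.047) but not by the test of the transcript itself (edgeR adjusted p = 0.079, 0.14 and 0.16). KRI1 ENST00000478863 and RBBP4 ENST00000525506 had no count in the siControl R1881 libraries. This puts them at least 34.6-fold and at least 30.5-fold higher in siNFYA R1881. With 1.3 and 0.47 CPM in siControl vehicle, both reached the mean count that defines members only through knockdown libraries. Their within-gene ratios in siControl R1881 are also set by the pseudocount, so their values and limma p are a description. Of the named siNFYA calls in vehicle, those of ADAMTS1, OGT and WASH5P held without any 1 library. With R1881, those of ADAMTS1, DAZAP1, DDX17, DDX39B, EWSR1, HNRNPA2B1, OGT, PLEKHH3, SRSF5 and WASH5P did. The CLK4 call also did, but that member was chosen through the knockdown libraries, so this adds no support.

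With siKLF5 fewer members passed. In vehicle 1 member, that of OGT, was higher and 0 were lower (edgeR), 0.0278% and 0.0% of all members, where 0.00261% of all transcripts tested were called higher and 0.0183% lower. An unadjusted p under 0.05 was reached by 188 members, and DESeq2 called 26 higher and 4 lower. With R1881, 6 were higher and 0 lower, 0.167% and 0.0%, where the background was 0.0601% higher and 0.0261% lower; 386 had an unadjusted p under 0.05 in edgeR, and DESeq2 called 94 higher and 5 lower. The 6 members include those of OGT, DDX17, DDX39B, HNRNPA2B1 and WASH5P, and had a median log2 change of 1.63 and 0.08 for the rest of their genes. WASH5P ENST00000633719 (log2 change 1.43 ± 0.17, edgeR adjusted p = 0.032) comes from a pseudogene with near-identical copies, between which reads can be split. Without siControl R1881 replicates 1, 2 and 3 in turn the count was 1, 2 and 3, and without siKLF5 R1881 replicates 1, 2 and 3 it was 1, 1 and 4. The OGT call held in all 6 of these fits. Relative to the rest of the gene, 1 member was higher and 0 lower in vehicle, where the background was 0.0479% higher and 0.062% lower and 273 members had an unadjusted p under 0.05 in limma. With R1881 6 were higher and 1 lower, where it was 0.0817% in either direction. Leaving out 1 library at a time gave totals between 3 and 15 in vehicle and between 7 and 22 with R1881.

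Falls in a knockdown were called by the transcript test (edgeR) for 2 members, neither of which was called within its gene. ARHGEF26 ENST00000483068, a model of a guanine nucleotide exchange factor gene that takes 79.2% to 91.1% of its gene's counts, had 171.5, 170.9 and 155.5 CPM in siControl vehicle and 124.2, 136.1 and 142.1 in siNFYA vehicle (log2 change −0.30 ± 0.05, edgeR adjusted p = 0.047). CMTM4 ENST00000581487, from a gene of the MARVEL-domain membrane proteins, had 246.8, 241.8 and 243.5 CPM in siControl R1881 and 206.1, 196.7 and 196.4 in siNFYA R1881 (log2 change −0.28 ± 0.04, adjusted p = 0.025). Its share of the gene's counts was 89.9%, 90.8% and 90.0% against 90.5%, 90.5% and 89.2%, and the within-gene change was −0.02 ± 0.21 (limma adjusted p = 1). Leaving out 5 of the 6 libraries in turn ended each of these calls. The abundant members of RPL4, RPL14, RPL32, RPS23, RPS28, NPM1 and OAZ1 passed in no knockdown comparison, with log2 changes between −0.23 and 0.29.

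Whether a knockdown changed the response of a member to R1881 was tested as an interaction. The test of transcripts called 0 members in either knockdown (edgeR), with 144 and 92 at an unadjusted p under 0.05 for siNFYA and siKLF5, where 0.0% of all transcripts passed in each. The within-gene test (limma) called 2 members higher and 1 lower for siNFYA and 1 lower for siKLF5, where 0.0826% and 0.0902% of all transcripts passed in either direction.

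R1881 itself changed members in both directions in siControl cells. The transcript test called 127 members higher and 108 lower, 3.52% and 3.0% of all members, where 9.24% of all transcripts tested were called higher and 7.06% lower. The 127 came from 101 genes and had a median log2 change of 1.80, with 1.15 for the rest of their genes. The 108 lower members came from 105 genes and had a median of −1.88, with −0.42 for the rest. Relative to the rest of the gene, 8 were higher and 16 lower, where the background was 0.174% and 0.248%. The median log2 ratio over all members was −0.20, and −0.33 for members with a whole intron, −0.10 for members that begin or end inside one, and −0.03 for all transcripts of that level. Abundant members went the other way, with a median of 0.07 for the 379 with a mean count over 50. The 3224 members with a mean count of 5 to 50 had −0.24, against −0.10 for protein-coding transcripts of 5 to 50. Scaling by library totals in place of TMM shifted the median of all transcripts tested by −0.174 in this comparison, so that R1881 medians between 0 and that size change sign, and moved the lower calls to 167. The lower calls numbered 57 without siControl vehicle replicate 1 and 65 without replicate 2.

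Of 34 tested members of androgen-induced genes, 21 were called higher with R1881 and 0 lower (edgeR), and relative to the rest of the gene 0 were called higher and 1 lower (limma). KLK2 ENST00000600755, from the gene of the secreted protease kallikrein 2, which has 8 members, had 0, 0.120 and 0.829 CPM in siControl vehicle and 248.5, 256.9 and 247.9 in siControl R1881 (log2 change 9.60 ± 0.33, edgeR adjusted p = 9.7e-09). It made up 30.4%, 29.9% and 29.9% of KLK2 counts with R1881, and its ratio to the rest of the gene was not called (limma adjusted p = 0.22). KLK3 ENST00000596333 had 5.17, 2.65 and 2.89 CPM in vehicle and 241.8, 228.8 and 245.5 with R1881 (log2 change 6.05 ± 0.21, adjusted p = 1.3e-08), at 7.69%, 4.74% and 4.82% of the gene against 6.67%, 6.11% and 6.74%. KLK4 ENST00000596876 rose by 3.17 ± 0.13 (adjusted p = 4.8e-08), IGF1R ENST00000559925, from the gene of a growth factor receptor, by 4.36 ± 0.98 (adjusted p = 0.016), and STT3A ENST00000534472, from the gene of a catalytic subunit of N-glycosylation, by 1.02 ± 0.12 (adjusted p = 0.00019). ALDH1A3 ENST00000558869, from the gene of a retinaldehyde dehydrogenase, had 0, 0.0735 and 0 CPM in vehicle and 6.63, 12.4 and 17.1 with R1881 (adjusted p = 0.0024). With 0.545 CPM in siNFYA vehicle and 0.267 in siKLF5 vehicle, it reached the mean count of 5 only through R1881 libraries, so its values are a description. The IGF1R member had 0.355 CPM in siControl vehicle and no count in siNFYA or siKLF5 vehicle, and also reached that level only through R1881 libraries. The KLK2 member, at 0.315 CPM in siControl vehicle and no count in siKLF5 vehicle, rests on R1881 libraries as well. The R1881 values of both are therefore a description too.

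Other rises were larger than those of the gene's other transcripts. MITD1 encodes a protein of the midbody, where dividing cells separate. Its member ENST00000464685 (chr2:99169263-99180962) had 2.19, 2.65 and 2.23 CPM in vehicle and 20.8, 22.1 and 22.9 with R1881, and went from 27.5%, 30.7% and 23.2% to 79.7%, 82.1% and 83.5% of the gene's counts. The log2 change was 3.21 ± 0.18 (edgeR adjusted p = 4.1e-07) and 3.55 ± 0.28 within the gene (limma adjusted p = 0.00083). FAAP20, a subunit of the Fanconi anemia core complex of DNA repair, has ENST00000497675 (chr1:2189544-2194108), with 24.2, 21.7 and 24.8 CPM in vehicle and 63.5, 63.4 and 61.6 with R1881. Its share went from 41.4%, 35.8% and 41.0% to 70.6%, 61.9% and 62.1%, a within-gene change of 1.51 ± 0.26 (limma adjusted p = 0.048) that passed in no fit leaving out a library. USP10 ENST00000566512, from the gene of a deubiquitinase, had 0.282, 0.404 and 0 CPM in vehicle and 7.16, 7.07 and 6.53 with R1881 (edgeR log2 change 4.66 ± 0.76, adjusted p = 0.0015; within gene limma adjusted p = 0.024). CBWD2 ENST00000490323 went from 8.14%, 11.0% and 7.27% to 26.0%, 29.6% and 26.7% of its gene (limma adjusted p = 0.027), and CBWD1 ENST00000475411 from 7.56%, 10.3% and 7.27% to 0.861%, 1.61% and 1.59%. CBWD1 and CBWD2 are near-identical copies, between which reads can be split.

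Among falls, H2AFY ENST00000505827, from the gene of the histone variant macroH2A1, lost most of its counts while its gene kept most of its own. It had 34.1, 35.8 and 26.1 CPM in vehicle and 2.81, 3.73 and 1.74 with R1881 (log2 change −3.54 ± 0.28, edgeR adjusted p = 7.2e-06), and went from 8.87%, 9.44% and 6.82% to 0.840%, 1.10% and 0.501% of the gene's counts (within-gene change −3.49 ± 0.34, limma adjusted p = 0.0022). It was as low in the siNFYA R1881 libraries, at 3.81, 2.82 and 4.60 CPM, and in the siKLF5 R1881 libraries, at 3.94, 2.98 and 3.21. COLEC12 ENST00000582147, the main model of a scavenger receptor gene in these cells, fell with the gene, from 97.3, 90.5 and 93.5 to 6.48, 5.81 and 8.19 CPM (log2 change −3.78 ± 0.14, edgeR adjusted p = 1.3e-08; within gene limma adjusted p = 0.82). LLGL2 ENST00000545227, from a cell polarity gene, had 7.76, 2.87 and 4.85 CPM in vehicle and no count in any R1881 control library, at least 27.4-fold lower (edgeR adjusted p = 0.0022; within gene limma adjusted p = 0.00058). With 0 CPM in siNFYA R1881 and 0.577 in siKLF5 R1881, it reached the mean count of 5 only through vehicle libraries. Its ratio in siControl R1881 is also set by the pseudocount, so its values are a description. ATP5G3 ENST00000472782, from a gene of the ATP synthase ring, went from 5.19, 7.76 and 3.56 CPM to no count, at least 29.5-fold lower (edgeR adjusted p = 0.014). FBXL17 ENST00000481160 (a ubiquitin ligase subunit) also passed (adjusted p = 0.041), a call that ended without 5 of the 6 libraries in turn.

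The members that were higher in knockdowns had their own R1881 values. Against vehicle in siControl, those of DDX17 (log2 change −1.32 ± 0.22), INTS3 (−2.28 ± 0.44), HDAC1 (−2.16 ± 0.55), SRSF4 (−1.51 ± 0.34), PLEKHH3 (−1.35 ± 0.27), WASH5P (−1.002 ± 0.15), EWSR1 (−0.94 ± 0.20), SRSF5 (−0.89 ± 0.21), OGT (−0.85 ± 0.17), SRSF3 (−0.69 ± 0.15) and DDX39B (−0.66 ± 0.13) were called lower, with edgeR adjusted p between 0.00092 and 0.021. Those of HNRNPA2B1 (−0.47 ± 0.19, adjusted p = 0.14), ACADVL (−0.75 ± 0.46), DAZAP1 (−0.43 ± 0.36), DYNC1LI2 (−0.27 ± 0.30), OXA1L (−2.56 ± 0.99), ENO1 (0.22 ± 0.49), ADAMTS1 (0.13 ± 0.19) and FLNA (0.16 ± 0.32) did not pass. The KLK3 member rose by 6.05 ± 0.21. KRI1 and RBBP4, whose members had no count in siControl R1881, had adjusted p of 0.034 and 0.17. This comparison shares its R1881 control libraries with the knockdown comparisons in R1881, so the values are only set side by side. CLK4 ENST00000519583, at 0.851, 0.987 and 1.62 CPM in vehicle and no count with R1881, was at least 6.14-fold lower (adjusted p = 0.0011).

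**Figure D4:**
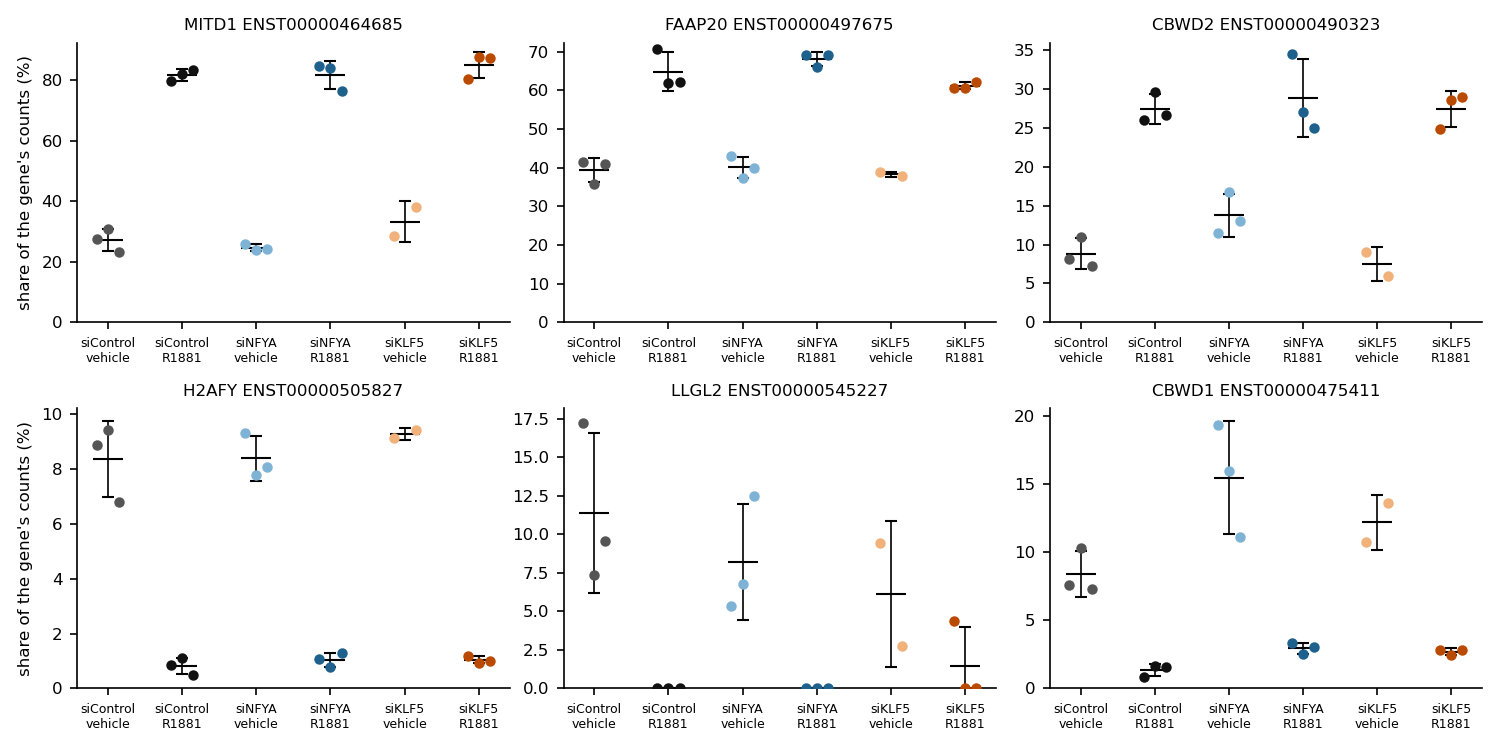
Share of the gene's counts (percent, vertical axes from 0) held by 6 members in the 6 groups; points are libraries, bars the mean and SD. MITD1, FAAP20 and CBWD2 have higher group means and H2AFY, LLGL2 and CBWD1 lower group means with R1881 under every siRNA, with MITD1 going from 23.2% to 30.7% in siControl vehicle to 79.7% to 83.5% in siControl R1881.

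Gene lists placed these members among their relatives. Counts of calls below are from the transcript test, medians from summed counts over all members of a list, each in the order siNFYA vehicle, siNFYA R1881, siKLF5 vehicle, siKLF5 R1881 and then R1881 in siControl, and the background shares are those given above. For SR proteins and their kinases (42 members in 20 of 32 genes) 1, 6, 0 and 0 members were higher and 5 were lower with R1881, with medians of 1.35, 1.90, 0.82, 1.26 and −0.74. For hnRNPs and other RNA-binding splicing factors (69 members in 23 of 35 genes) 11, 14, 0 and 4 were higher and 8 lower with R1881, with medians of 1.28, 1.66, 0.98, 1.21 and −0.60. Of these 69 members, 62, 65, 60 and 62 were above 0 in the knockdown comparisons. Genes of nuclear detained introns, a list from general knowledge that shares CLK4, OGT and DDX39B, among other genes, with the other lists (53 members in 21 of 29 genes), had 4, 8, 1 and 3 higher, and 1 higher and 8 lower with R1881, with medians of 1.17, 1.57, 0.86, 1.27 and −0.78. For core spliceosome subunits (33 members in 15 of 38 genes) no member passed in a knockdown (edgeR, unadjusted p under 0.05 in 6, 7, 2 and 5) and that of SF3B3 fell with R1881 (log2 change −0.45 ± 0.13, edgeR adjusted p = 0.045), with medians of 0.86, 1.20, 0.79, 0.65 and −0.48.

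Cytosolic ribosomal protein genes (93 members in 49 of 88 genes) had 0, 2, 0 and 0 higher and 6 lower with R1881, with medians of 0.67, 0.77, 0.28, 0.44 and −0.37. The falls included RPL4 (−0.14 ± 0.04), RPL13 (−0.20 ± 0.05), RPL14 (−0.17 ± 0.03) and RPS2 (−0.88 ± 0.24). Relative to the rest of the gene, 0 members of this list were called higher and 0 lower with R1881 (limma). Androgen-induced genes (35 members in 15 of 43 genes) had 21 higher with R1881, and 2, 2, 0 and 0 higher in the knockdowns, with medians of 0.83, 0.87, 0.46, 0.73 and 3.26. DNA replication and mitosis genes (14 members in 11 of 52) had none called in a knockdown (edgeR, unadjusted p under 0.05 in 2, 1, 0 and 3) and 2 lower with R1881, those of MCM7 (−1.02 ± 0.23, edgeR adjusted p = 0.012) and MCM4, both of the replicative helicase, with medians of 0.31, 0.13, 0.24, 0.05 and −1.11. Glycosylation genes (10 members in 8 of 27) had 1 higher in each knockdown comparison, that of OGT, and 2 higher and 1 lower with R1881, with medians of −0.24, 0.51, 0.14, 0.37 and 0.22. No member was called by edgeR in any comparison for ATF4 amino acid response and one-carbon genes (16 members, medians 1.70, 1.58, 1.03, 1.23 and −0.17), where 5, 5, 1, 5 and 1 had an unadjusted p under 0.05. The same held for tRNA synthetases (20 members, medians 0.23, 0.44, 0.67, 0.48 and −0.23), with 2, 2, 0, 1 and 0 at an unadjusted p under 0.05. It also held for NF-Y and KLF factors (SP3, NFYC and NFYB, 1 member each), with 0 at an unadjusted p under 0.05. Of 3 members of golgin genes and PABPC1L, that of GOLGA8A, a gene with near-identical copies, was lower with R1881 (−1.53 ± 0.41, adjusted p = 0.027), with knockdown medians of 1.81, 2.73, 1.14 and 2.32.

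Among members with a whole intron, the knockdown ratios rose with the number of intron bases held and were lowest where these bases were richest in G and C. Grouped by the bases of intron held (limits 205, 501 and 1211.5 bases), the medians from the shortest to the longest group were 0.40, 0.80, 1.08 and 1.26 for siNFYA in vehicle, and 0.35, 0.81, 1.29 and 1.44 for siNFYA with R1881. They were 0.22, 0.54, 0.73 and 0.79 for siKLF5 in vehicle, and 0.43, 0.64, 0.82 and 0.97 for siKLF5 with R1881. For R1881 in siControl they were −0.23, −0.31, −0.26 and −0.54. Grouped by GC content (limits 45.76%, 56.36% and 63.71%), the medians from the lowest to the highest group were 1.07, 1.01, 0.99 and 0.65 for siNFYA in vehicle, and 1.32, 1.19, 1.13 and 0.49 with R1881. For siKLF5 they were 0.66, 0.69, 0.61 and 0.36 in vehicle and 0.95, 0.90, 0.66 and 0.43 with R1881, and for R1881 in siControl −0.50, −0.42, −0.36 and −0.01. Length and GC content were not separated from each other. Members whose intron is coding in another transcript (237) had medians of 0.90, 1.10, 0.46 and 0.72 in the knockdowns, against 0.96, 0.99, 0.61 and 0.74 for the 1326 others.

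**Figure D5:**
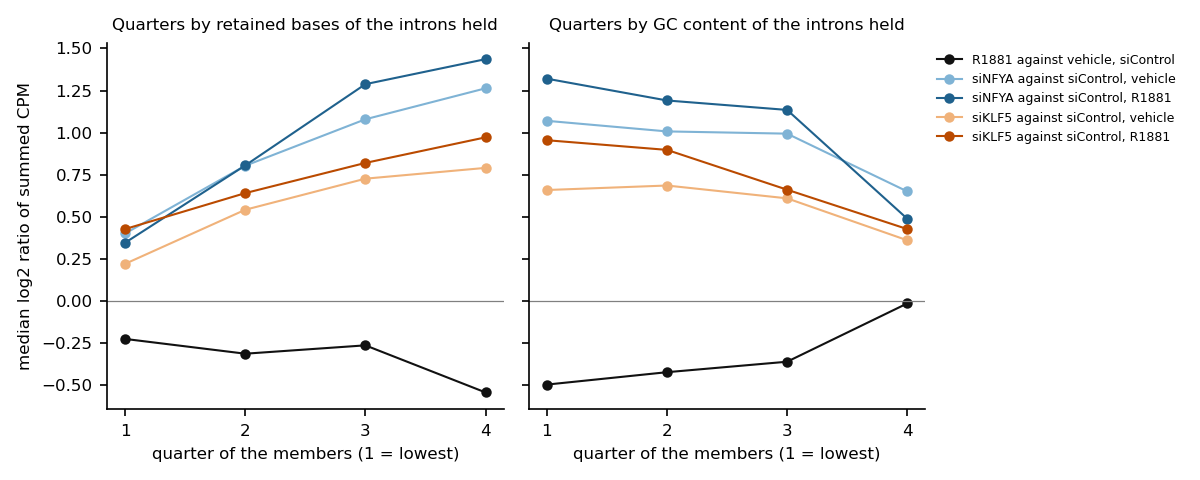
Median log2 ratio of summed CPM for members with a whole intron, in 4 groups of about equal size ordered by the intron bases held (left) and by their GC content (right), for 5 comparisons. The siNFYA R1881 line goes from 0.35 to 1.44 with length and from 1.32 to 0.49 with GC content.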

How the data were processed

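RNA of LNCaP cells was sequenced from stranded libraries, per the labels' protocols. Kallisto, Trimmomatic, FastQC, DESeq2 and the build GRCh38 are named, without roles or versions, per the submitters' processing notes. Which annotation release they used is not given in the sources used here. For siNFYA and for siKLF5 the authors deposited 1 table each, with the same siControl columns in both. Each cell joins an estimated count, a TPM value and another number that has no name and was not used. A gene-level table of estimated counts was deposited with each and used to check sums.

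Estimated counts were rounded and tested for every transcript with edgeR 4.0.16 (TMM, filterByExpr, glmQLFit and glmQLFTest, 1 coefficient a group, 4 groups a table), and the log2 ratio of a transcript to the rest of its gene (pseudocount 0.5) with limma 3.58.1, in R 4.3.3. P-values were adjusted by Benjamini-Hochberg over all 35475 transcripts tested in the siNFYA table and 38258 in the siKLF5 table (32668 and 35494 within genes), and called under 0.05. R1881 in siControl was read from the siNFYA table. SEs of log2 changes in edgeR were derived from the F statistic. Introns were taken from protein-coding GENCODE v29 models (GRCh38). Both tests were run on simulated data made for siNFYA against siControl with R1881: of 96 transcripts changed 4-fold among 32604 tested the edgeR test called 13.5%, and of 95 among 28726 the limma test called 0. Of 88 changed 2-fold edgeR called 3.41%, and of 86 limma called 0. The simulation set the spread of a transcript by its level alone and changed only members. In the real comparison limma called 109 members, so the simulated shares are no estimate of the power there.

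The labels do not say whether the samples of a group came from separate cultures. P-values then measure only the spread between these samples, which may be technical. The members and the gene lists were chosen with earlier results of these data known. Transcripts were named by rule: of those called, with no overlap between the groups' libraries, a mean of at least 30 counts in the higher group and 20 counts for the rest of the gene, the 5 largest rises and falls a comparison (4 within genes), the 10 highest TPM values, and up to 4 a list by adjusted p, once a gene. Alternatives were DESeq2 1.42.0, limma on TPM, the compared groups alone, other scalings, filters and pseudocounts, and leaving out each library. Some named members and markers are not reported here.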

Additional observations from a re-analysis of the deposited data

Results flagged for a closer look

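Differences between treatments in the effect of a knockdown, tested as an interaction on the ratio of a member to the rest of its gene (limma, Benjamini-Hochberg adjustment), passed for 3 members with siNFYA, 0.0555% of all members higher and 0.0278% lower, where 0.0826% of all transcripts tested passed in either direction. With siKLF5 it passed for 1 of them, 0.0278% against 0.0902%. These shares are near or below the background and are no result about the members as a class. The 3 lie outside the naming rule and were chosen after their values were seen. PHF10 ENST00000480008, from the gene of a subunit of a SWI/SNF chromatin complex, had no count in any siControl library or any R1881 library. It had 21.1, 17.8 and 19.8 counts in siNFYA vehicle and 21.9 and 16.3 in siKLF5 vehicle. Its log2 difference of differences was −5.82 for siNFYA and −5.27 for siKLF5, both set by the pseudocount because groups are at 0. It reached the mean count of 5 only through these 5 libraries, so the values are a description and their p is not given.

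AFDN ENST00000511637, from the gene of the junction protein afadin, had 9, 12.4 and 14.6 counts in siControl vehicle and none in siControl R1881, against 25.4, 10 and 14.5 in siNFYA vehicle and 19.4, 11.8 and 12.3 in siNFYA R1881 (difference 4.14, limma adjusted p = 0.0179). MLLT6 ENST00000620482, from a chromatin-factor gene, had 14.4, 11.6 and 7.8 counts in siControl vehicle and none in siControl R1881, against 26.3, 26.7 and 21.3 in siNFYA vehicle and 11.3, 22.1 and 11.4 in siNFYA R1881 (difference 3.63, limma adjusted p = 0.0244). For AFDN and MLLT6 the ratios in siControl R1881 are set by the pseudocount, because every library there is at 0. The size of their differences and their p depend on it and are a description. None of the 3 passed the interaction test of the transcript itself in edgeR. Groups of 2 or 3 libraries are too small for the check for a single outlying library.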

How the results depend on the processing

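No named call and no median over all members changed sign under any alternative run. Medians near 0 did: with library totals that of all transcripts went from −0.013 to 0.0028 for siNFYA in vehicle, from −0.012 to 0.013 for siNFYA with R1881 and from −0.0005 to 0.023 for siKLF5 with R1881. In another alternative, medians of edgeR coefficients, fitted without a low-count filter, replaced medians of ratios of summed counts. The median of members with a mean count over 50 then went from 0.051 to −0.0093 for siNFYA with R1881 and from 0.043 to −0.0064 for siKLF5 in vehicle. Nonsense-mediated decay transcripts changed sign in both vehicle comparisons (0.0215 to −0.0186 and 0.039 to −0.013). So did coding transcripts with a mean count of 5 to 50 for siNFYA with R1881 and siKLF5 in vehicle (0.0145 to −0.033 and 0.034 to −0.021). All transcripts did for siKLF5 in vehicle (0.0087 to −0.042). Numbers of called members moved more, and they stand without the share over all transcripts in each alternative. DESeq2 called 226 members lower with R1881, 305 higher and 9 lower with siNFYA in vehicle, 378 and 7 with siNFYA and R1881, 26 and 4 with siKLF5 in vehicle, and 94 and 5 with siKLF5 and R1881. With the compared groups fitted alone, edgeR called 57 lower with R1881, 0 and 0 with siNFYA in vehicle, 16 and 0 with siNFYA and R1881, and 0 higher in each siKLF5 comparison, and limma within genes called 11, 16, 30 and 6 for R1881, siNFYA in vehicle, siNFYA with R1881 and siKLF5 in vehicle. Without the low-count filter, 48 were lower with R1881, 2 lower with siNFYA in vehicle, 36 higher and 2 lower with siNFYA and R1881, 0 higher and 1 lower with siKLF5 in vehicle, and 1 in the siKLF5 interaction; within genes 3, 24 and 1 passed for siNFYA in vehicle, siNFYA with R1881 and the siNFYA interaction. Limma on TPM called 166 lower with R1881, and 0 higher and 1 lower with siKLF5 in vehicle; ratios of TPM gave 4, 72, 2 and 4 in the siNFYA and siKLF5 comparisons in order, and a pseudocount of 2 gave 0 for siKLF5 with R1881. Library totals gave 167 lower with R1881 and a median of −0.38. Of members with a mean count of at least 20, 64 were lower with R1881, and within genes 7, 4, 57, 0 and 1 passed for R1881 and then the siNFYA and siKLF5 comparisons.

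Leaving out 1 library gave 92 to 114 higher and 57 to 95 lower members with R1881 (20 to 36 within genes), 5 to 15 and 0 to 1 with siNFYA in vehicle (6 to 13), 24 to 44 and 0 to 1 with siNFYA and R1881 (33 to 103), 0 to 1 and 0 with siKLF5 in vehicle (3 to 15), 1 to 4 and 0 with siKLF5 and R1881 (7 to 22), and 0 in the interactions (3 to 9 and 1 to 11 within genes). Medians stayed between −0.23 and −0.17 for R1881, 0.56 and 0.65, and 0.61 and 0.68 for siNFYA, and 0.38 and 0.43, and 0.43 and 0.52 for siKLF5, in vehicle and with R1881. An edgeR fit without a low-count filter gave medians of 0.60 for siNFYA with R1881 and 0.33 for siKLF5 in vehicle. The alternatives for the medians were chosen after seeing the data. The share of members in siControl vehicle, siControl R1881, siNFYA vehicle, siNFYA R1881, siKLF5 vehicle and siKLF5 R1881 was 3.56%, 3.44%, 3.70%, 3.79%, 3.70% and 3.66% of TPM, and 1.51%, 1.43%, 1.97%, 1.88%, 1.79% and 1.68% of counts without the 10 members with the most counts. Over coding and retained-intron transcripts alone it was 2.03%, 1.87%, 2.36%, 2.31% and 2.14% in these groups other than siNFYA vehicle. Leaving out 1 library kept it between 1.90% and 1.93%, 1.77% and 1.78%, 2.27% and 2.43%, 2.23% and 2.25%, 2.11% and 2.25%, and 2.00% and 2.06%. The cause of these shifts was not tested. No paired analysis was possible because each number in the labels belongs to 1 library only. A lone siKLF5 vehicle library, where the other was left out, was assumed to vary like the other groups. Depth limits precision: the median member had a mean count of 10.96.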
